A study of Mus musculus with 6 samples.

Results

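Genes that equip astrocytes for transport and cell coupling were followed through the mouse brain at 3 ages. They were chosen by symbol and not by a filter on their values, though with earlier results of these data known. The 10 symbols are Slc1a2, Slc1a3, Aqp4, Kcnj10, Gja1, Gjb6, Aldh1l1, S100b, Glul and Mfge8. Of these 10 symbols, 9 matched a row in all 6 sections, among 19465 genes listed. Glul was not analysed here.

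Astrocytes clear the glutamate that neurons release, buffer extracellular potassium and move water between the tissue and the blood vessels. Much of this work is done at their endfeet, the processes that wrap vessels and line the brain surface, and gap junctions built of connexins couple the cells into networks. In rodents, the balance of these proteins differs between brain regions and shifts as the brain matures. Slc1a2 and Slc1a3 encode the main astrocytic glutamate transporters. Aqp4 encodes the water channel of the endfeet, and Kcnj10 encodes an inward rectifier potassium channel that oligodendrocytes also carry. Gja1 and Gjb6 encode the principal astrocyte connexins. Aldh1l1 encodes a folate enzyme that is widely used as an astrocyte marker, S100b a calcium-binding protein shared with cells of the oligodendrocyte lineage, and Mfge8 a secreted protein that bridges dying cells to phagocytes.

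The samples were formalin-fixed, paraffin-embedded coronal brain sections of untreated wild-type male C57BL/6J mice, with 2 biological replicates each at P21 (postnatal day 21), adult (12 to 15 weeks) and aged (28 months). P21 mice were bred by the study from purchased parents, whereas the older mice were purchased. RNA was read with probe pairs on 10x Visium slides, whose spots each cover several cells of mixed type, so a value is a spot or zone level and not a level per astrocyte. Fewer astrocytes and less RNA per astrocyte cannot be told apart in such sums. Tissue of P21 and adult mice was cut onto Visium v1 slides, while the aged sections were transferred with a CytAssist instrument onto Visium v2 slides, for which the study's methods also state a revised probe design. Age thus cannot be told apart from slide version and probe design where aged mice are set against adults.

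After removal of 1 to 4 low-quality spots per section, 2917 to 3679 spots per section remained, with 12074.5 to 25535 median UMIs (unique molecules counted) per spot. Summed over a section, each gene was covered by at least 1708 UMIs (Aldh1l1 in P21 replicate 2) and at most 161906 (Slc1a2). A level in CPM is the number of UMIs of a gene for every 1000000 UMIs in its section or zone. Levels of different genes are not compared with each other, since each gene is read by its own probes. Pairs of P21 and adult sections shared 2607 to 2992 barcodes, the aged sections shared 3363, and aged and other sections shared 0. A barcode marks a position on a slide design, so shared barcodes are not shared cells. Joint clustering of all spots, in which the 9 genes took no part, gave 8 zones, named by their markers, and a further zone of meninges and large vessels. They are CTX (cortex), TH (thalamus) with RT (its reticular part), HP (hippocampus), STR (striatum), HY (hypothalamus), VS (ventricles) and FT (fiber tracts). VS was led by Ttr and Folr1, but Gpr151 and Pou4f1 were also among its leading genes. Pan-neuronal genes summed to 5541 and 5626 CPM there at P21, so VS was not ventricular tissue alone. Other markers differed between the ages as well. The summed level of 10 mature oligodendrocyte genes was 26067 and 27242 CPM at P21, 8447 and 8255 CPM in aged mice and 13101 and 12737 CPM in adults. That of 4 red blood cell genes was 2266 and 1284 CPM at P21 against 319.7 and 166 CPM in adults and 140.4 and 228 CPM in aged mice.

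All 9 are protein-coding genes in GENCODE's annotation of mm10. Slc1a2 lies at chr2:102658659-102790784 (plus strand, ENSMUSG00000005089), Slc1a3 at chr15:8634124-8710764 (minus strand, ENSMUSG00000005360) and Kcnj10 at chr1:172341210-172374085 (plus strand, ENSMUSG00000044708). Gja1 lies at chr10:56377330-56402513 (plus strand, ENSMUSG00000050953) and Gjb6 at chr14:57123303-57133611 (minus strand, ENSMUSG00000040055). Aldh1l1 lies at chr6:90486427-90600203 (plus strand, ENSMUSG00000030088), S100b at chr10:76253853-76261159 (plus strand, ENSMUSG00000033208) and Mfge8 at chr7:79133768-79149060 (minus strand, ENSMUSG00000030605).

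The stretches of 250 bases upstream of the start sites of both connexin genes are shown, since their levels differed in opposite directions between adult and aged sections. They were taken from RefSeq's annotation of GRCm38.p6 and are printed 5′ to 3′ in lower case on the strand of the gene, for Gja1 at chr10:56377050-56377299 (plus strand) and for Gjb6 at chr14:57133612-57133861 (minus strand). Capitals mark a match to the AP-1 motif TGANTCA.
Gja1: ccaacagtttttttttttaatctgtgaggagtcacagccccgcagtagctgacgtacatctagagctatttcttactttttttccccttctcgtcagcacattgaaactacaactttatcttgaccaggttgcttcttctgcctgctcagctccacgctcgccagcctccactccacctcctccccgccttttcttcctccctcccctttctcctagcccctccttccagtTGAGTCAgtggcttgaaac
Gjb6: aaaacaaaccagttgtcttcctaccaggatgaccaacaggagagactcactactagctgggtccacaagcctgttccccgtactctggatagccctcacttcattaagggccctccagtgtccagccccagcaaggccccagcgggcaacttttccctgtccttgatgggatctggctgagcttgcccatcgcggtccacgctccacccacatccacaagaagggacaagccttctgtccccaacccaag

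On either strand, the motifs searched were the TATA box TATAAA, the GC box GGGCGG, the STAT motif TTCNNNGAA, the NFI palindrome and the AP-1 motif. The window of Gja1 held 1 AP-1 match and no other, and that of Gjb6 held none. Of 32851 such windows in the annotation, 6.75% held the AP-1 motif, 12.4% the TATA box, 32.7% the GC box, 7.02% the STAT motif and 0.0365% the NFI palindrome. These matches are letters in a window, and no measurement here bears on their use.

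Spots rich in other astrocyte genes were rich in all 9 genes. Cortical spots of each section were ranked by the summed level of 15 reference astrocyte genes, such as Aldoc and Sox9, none of which is among the 9. The level in the highest quintile of spots was divided by that in the lowest. Over the 6 sections, the mean ratio ran from 1.42 for S100b and 1.71 for Slc1a2 to 2.62 for Mfge8 and 3.02 for Gjb6, and it was above 1 in 6 of 6 sections for each gene. In TH it ran from 1.27 for S100b to 1.93 for Gjb6, again above 1 in 6 of 6 sections for each gene. Ranked by pan-neuronal genes, cortical spots gave ratios below 1 in 6 of 6 sections for Slc1a2, Slc1a3, Aqp4, Gja1 and Mfge8, with the lowest mean for Mfge8 (0.576). Kcnj10 and Gjb6 were exceptions there, with ratios above 1 in 6 of 6 sections and means of 1.29 and 1.28. This did not extend to TH, where the mean was 0.770 for Gjb6, above 1 in 0 of 6 sections. For Kcnj10 it was 0.927 in TH, above 1 in 2 of 6. The oligodendrocyte ranking set other genes apart. In TH, S100b was 2.002 times and Aqp4 1.93 times as high in the oligodendrocyte-rich quintile, in 6 of 6 sections. In CTX the ratio of S100b was 1.52, above 1 in 6 of 6 sections, and that of Aqp4 was 1.15, above 1 in only 4 of 6. Kcnj10 was 1.90 times as high in CTX but 1.196 times in TH, in 6 of 6 sections each. The ratios share spots and library depth within a section and carry no test.

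Across whole sections, none of the 9 genes reached the criteria for a change at either age, which were an adjusted p under 0.05 in edgeR's quasi-likelihood test together with a change of more than 1.5-fold. Among all genes tested, 5.19% were called in P21 vs. adult, and 8.87% were in aged vs. adult. DESeq2 called 0 of 9 in either comparison as well. In edgeR's test 5 of 9 had an unadjusted p under 0.05 in each comparison. Of all genes, 4582 of 11153 had such a p in P21 vs. adult, and 6296 of 11315 had one in aged vs. adult. The plot of whole-section levels shows the differences from adults, whose fitted folds all stayed under 1.5. A whole-section level mixes zones, and the tissue captured was not alike. The adult sections held 353 and 413 HY spots, the P21 sections 668 and 578, and the aged sections 611 and 824. VS had 33 and 41 spots in the adult sections, fewer than in any other section. The part of zone make-up in the whole-section differences was not tested.

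**Figure D1:**
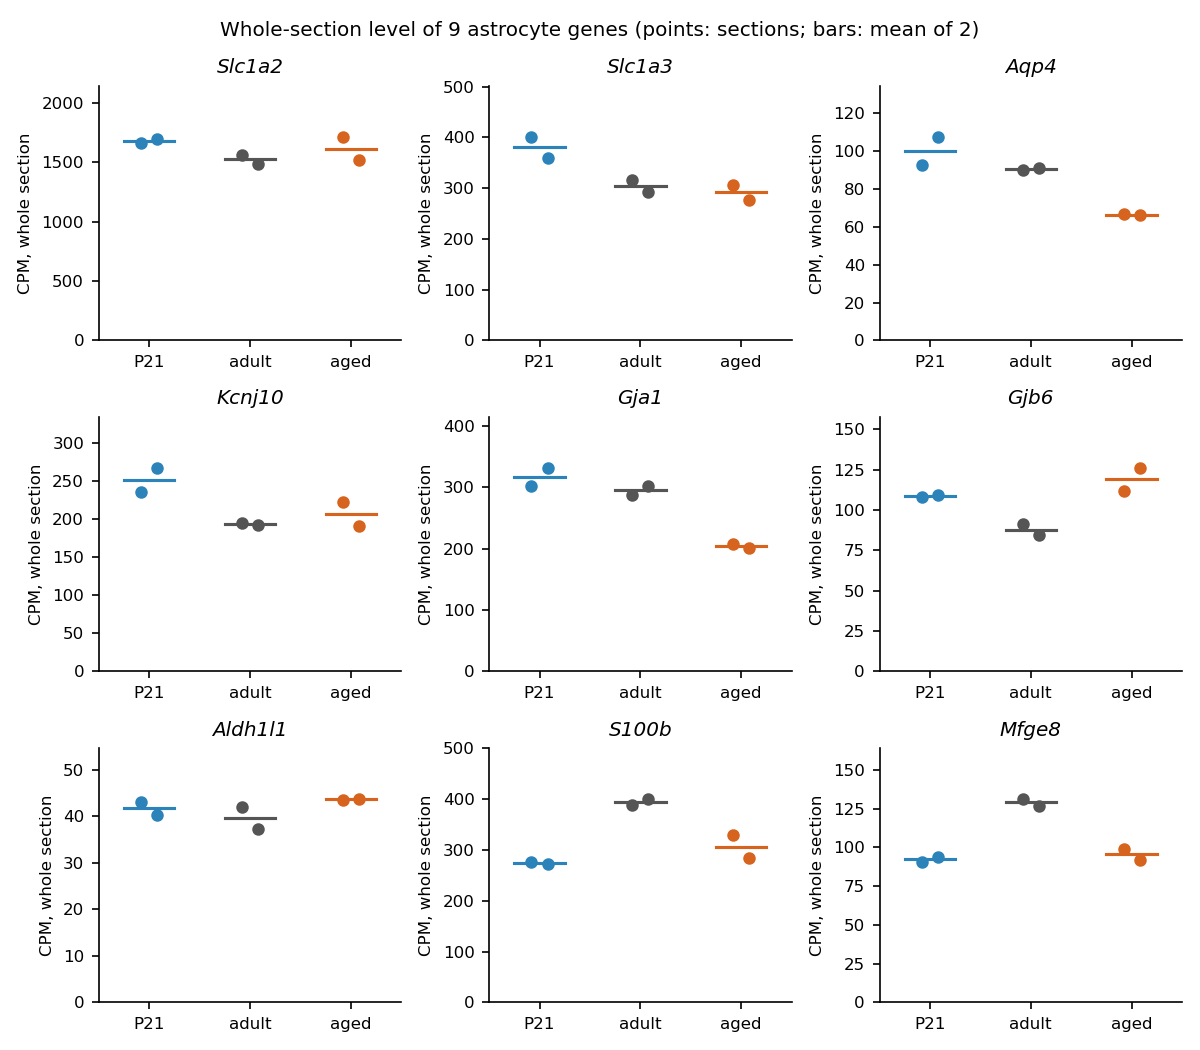
Whole-section level of each of the 9 genes in CPM (vertical axes, from 0) against age, with each section a point and the mean of 2 sections a bar. S100b and Mfge8 stand highest in the adult sections, and Aqp4 and Gja1 stand lowest in the aged sections.

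Neither glutamate transporter was called over whole sections. Slc1a2 measured 1662 and 1694 CPM at P21, 1714 and 1516 CPM in aged mice and 1565 and 1482 CPM in adults. Slc1a3 measured 401 and 360.0 CPM at P21, 307 and 277 CPM in aged mice and 316 and 293 CPM in adults. The P21 sections lay above both adult sections for either transporter, whereas the aged and adult sections overlapped. The fitted difference of Slc1a3 in P21 vs. adult was 0.34 ± 0.084 on the log2 scale (SE, 2 sections per age), with an adjusted p of 0.0165 but a fold under 1.5.

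The endfoot channels differed from one another. Aqp4 was at 92.9 and 108 CPM at P21, 90.0 and 91.0 CPM in adults and 67.0 and 66.1 CPM in aged sections, where both values lay below all others. Its log2 difference in aged vs. adult was -0.44 ± 0.079 (adjusted p = 0.00180), short of the fold criterion. Kcnj10 was at 236 and 267 CPM at P21, 195 and 192 CPM in adults and 222 and 191 CPM in aged sections. Here the P21 sections stood apart from the adult ones (log2 difference 0.40 ± 0.091, adjusted p = 0.0123), while the aged and adult sections overlapped.

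The connexins differed in opposite directions between adult and aged sections. Gja1 was at 301 and 331 CPM at P21, 288 and 302 CPM in adults and 207 and 200.5 CPM in aged sections. Gjb6 was at 108 and 109.6 CPM at P21, 91.1 and 84.8 CPM in adults and 112 and 126 CPM in aged sections. For neither connexin did the aged and adult values overlap. The log2 difference in aged vs. adult was -0.53 ± 0.069 for Gja1 (adjusted p = 3.67e-04) and 0.44 ± 0.067 for Gjb6 (adjusted p = 9.07e-04), both under the fold criterion.

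The 3 remaining genes included the pair that peaked in adults. S100b was at 277 and 273 CPM at P21, 389 and 401 CPM in adults and 329.7 and 284 CPM in aged sections. Mfge8 was at 90.8 and 93.9 CPM at P21, 131 and 127 CPM in adults and 99.2 and 91.8 CPM in aged sections. For both genes the adult sections lay above all 4 others. The adjusted p was 0.00264 at P21 and 0.00630 in aged mice for S100b, and 0.00161 and 9.93e-04 for Mfge8. Aldh1l1 ranged only from 37.2 to 43.7 CPM over the 6 sections, and its P21 and adult values overlapped.

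Each gene had its own map across zones, and most were highest in the zone of meninges and large vessels. This zone is called the surface below, though part of its spots lay deeper inside the tissue. Its spots had a median of 8774 UMIs, the lowest of all clusters. The zone levels are descriptions, as the zones are clusters of the same spots. The SD over 6 sections spans all ages and so includes the differences between them. In the zone of meninges and large vessels, 7 of 9 genes had their highest mean over the 6 sections. Slc1a2 reached 3078 ± 486 CPM there (SD, n = 6 sections), above its level of 1867 ± 182 CPM in STR in 6 of 6 sections. STR was above CTX in 5 of 6 sections and CTX above HP in 6 of 6, though their ranges overlapped, and VS was lowest at 1031 ± 137 CPM. Slc1a3 reached 764 ± 25.2 CPM at the surface, within 717 to 789.8 CPM in all sections, and was lowest in the mean in TH (233 ± 62.2 CPM). The order of FT, STR and HY differed by age for Slc1a3. FT lay below STR and HY in both P21 sections (386 and 342 CPM in FT). It lay above them in both aged sections (509 and 468 CPM).

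The water and potassium channels were ordered otherwise. Aqp4 was 248 ± 33.8 CPM at the surface, 194 ± 43.9 CPM in FT and 44.1 ± 11.8 CPM in CTX, the lowest zone in 6 of 6 sections. The surface was above FT in only 4 of 6 sections. In both aged sections FT was higher, at 220.0 and 269 CPM against 208 and 254 CPM. Kcnj10 instead peaked in TH at 403 ± 53.3 CPM, above FT in 5 of 6 sections, and CTX was again lowest in the mean (122 ± 17.2 CPM). The surface held only 216 ± 28.5 CPM of Kcnj10.

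Of the connexins, Gja1 was 584 ± 59.5 CPM at the surface, 382 ± 20.5 CPM in FT and 186 ± 51.0 CPM in CTX, where it was lowest in 6 of 6 sections. RT, HY and VS lay between with levels that overlapped. Gjb6 was 284 ± 48.2 CPM at the surface and 157 ± 35.2 CPM in TH, its second zone and above RT in 6 of 6 sections, and it was lowest in STR (67.3 ± 14.2 CPM).

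S100b had its peak in FT, with 805 ± 286 CPM against 510.3 ± 88.7 CPM in RT, higher in 6 of 6 sections, and HP was lowest at 206 ± 27.9 CPM. Mfge8 was 292 ± 68.9 CPM at the surface and lowest in TH (57.2 ± 14.8 CPM, below RT in 6 of 6 sections). Aldh1l1 ran, away from the surface, from 32.0 ± 4.56 CPM in HP to 54.4 ± 15.97 CPM in FT. In FT its aged sections, at 73.6 and 75.7 CPM, lay above all others. The deposited Moran's I, a score of how strongly a gene's level clusters in space, ranked Aldh1l1 at percentiles 47.5 to 71.3 of the genes listed in a section. The other 8 genes ranked at percentiles from 85.5 (Mfge8) to 99.5 (Slc1a2).

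**Figure D2:**
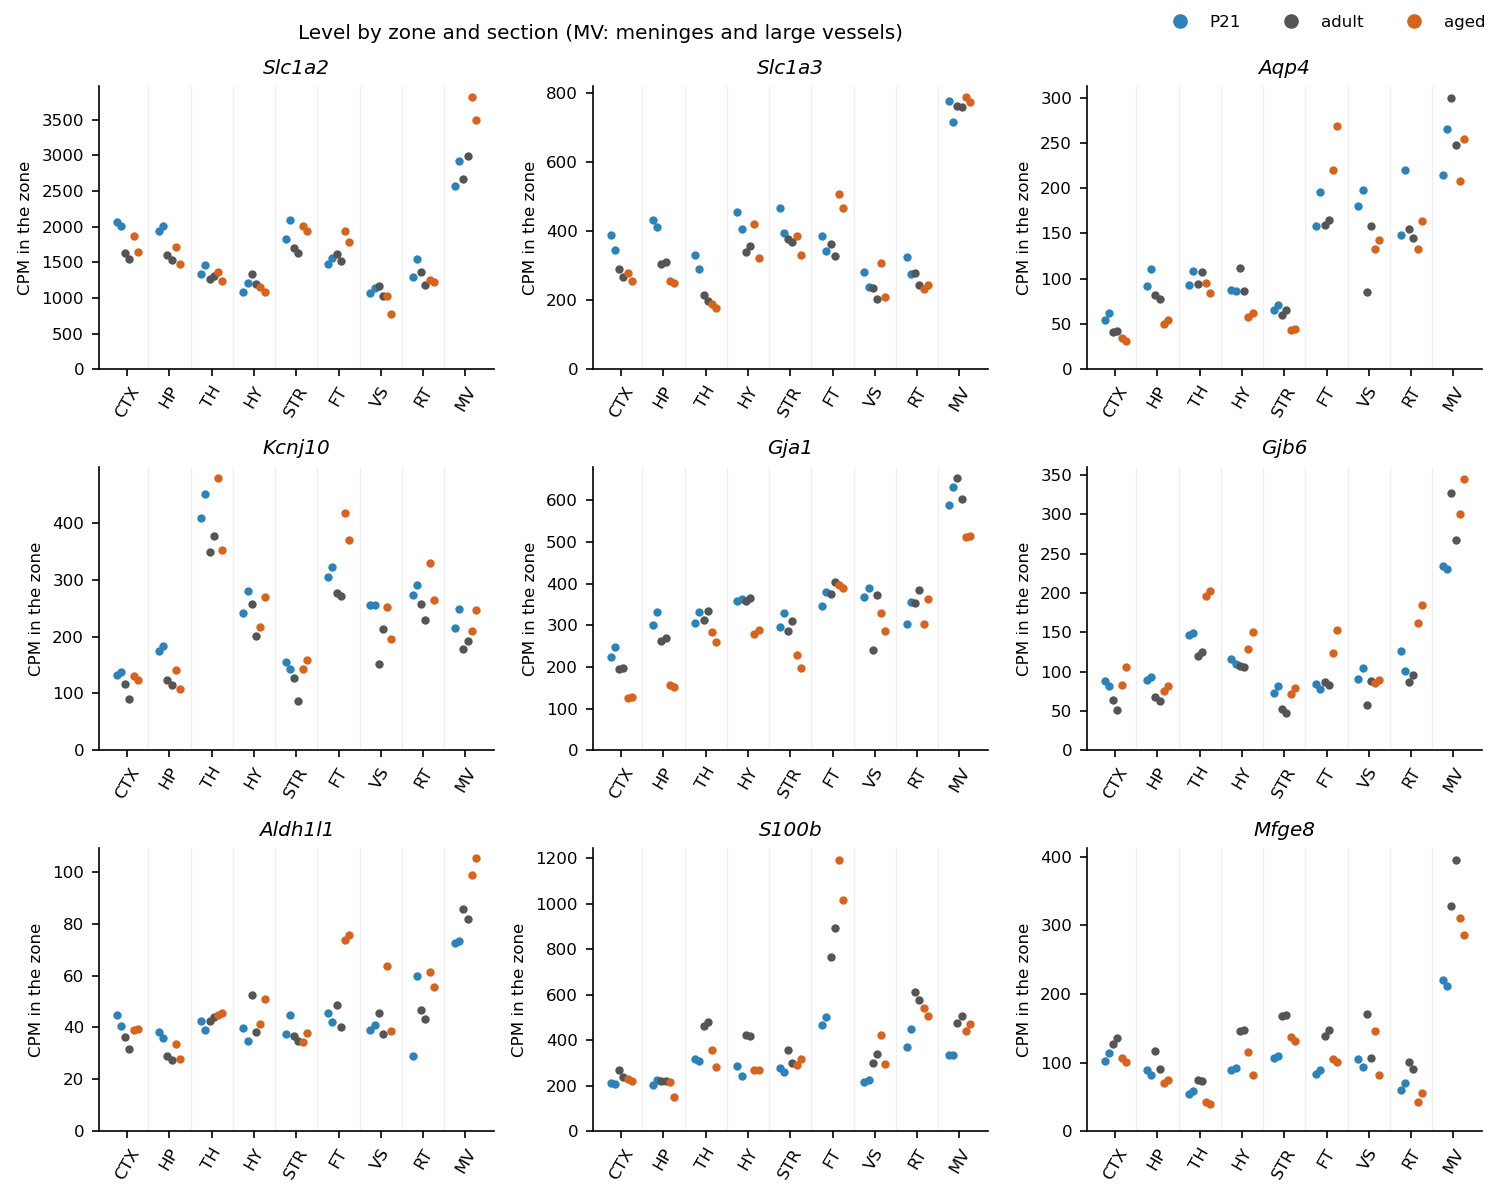
Level in CPM (vertical axes, from 0) in the 8 zones and in the zone of meninges and large vessels (MV), with each of the 6 sections a point coloured by age. The mean over sections is highest in MV for 7 genes, in TH for Kcnj10 and in FT for S100b. The aged points stand above the adult ones in FT for Slc1a2, Slc1a3, Aqp4, Kcnj10, Gjb6, Aldh1l1 and S100b.

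The difference between the brain surface and the interior was measured by distance as well. Cortical and meningeal spots were binned by the number of spot steps from the nearest spot outside the tissue. From spots 7 or more steps inside to those at the edge, Aqp4 went from 45.96 to 219 CPM in the mean of 6 sections, a ratio of 4.99 that ranged from 3.74 to 6.46. Gjb6 had a mean ratio of 3.798 and Gja1 of 3.12. S100b and Kcnj10 had the lowest, at 1.47 and 1.59. All 9 genes were higher at the edge in 6 of 6 sections. Most of the difference lay between the first and second rows of spots, since Aqp4 was at 78.3 CPM in the second row. Only 6 to 33 of the 108 to 143 edge spots per section were assigned to CTX. The edge row thus largely repeats the meningeal zone and is no separate measure. Within CTX spots alone, the Aqp4 ratio was 1.85 and above 1 in 5 of 6 sections. That of S100b was 1.01 and above 1 in 3 of 6. The ratio was above 1 in 5 of 6 sections for Gjb6 and in 4 of 6 for Kcnj10 and Aldh1l1. For Slc1a2, Slc1a3, Gja1 and Mfge8 it was above 1 in 6 of 6.

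**Figure D3:**
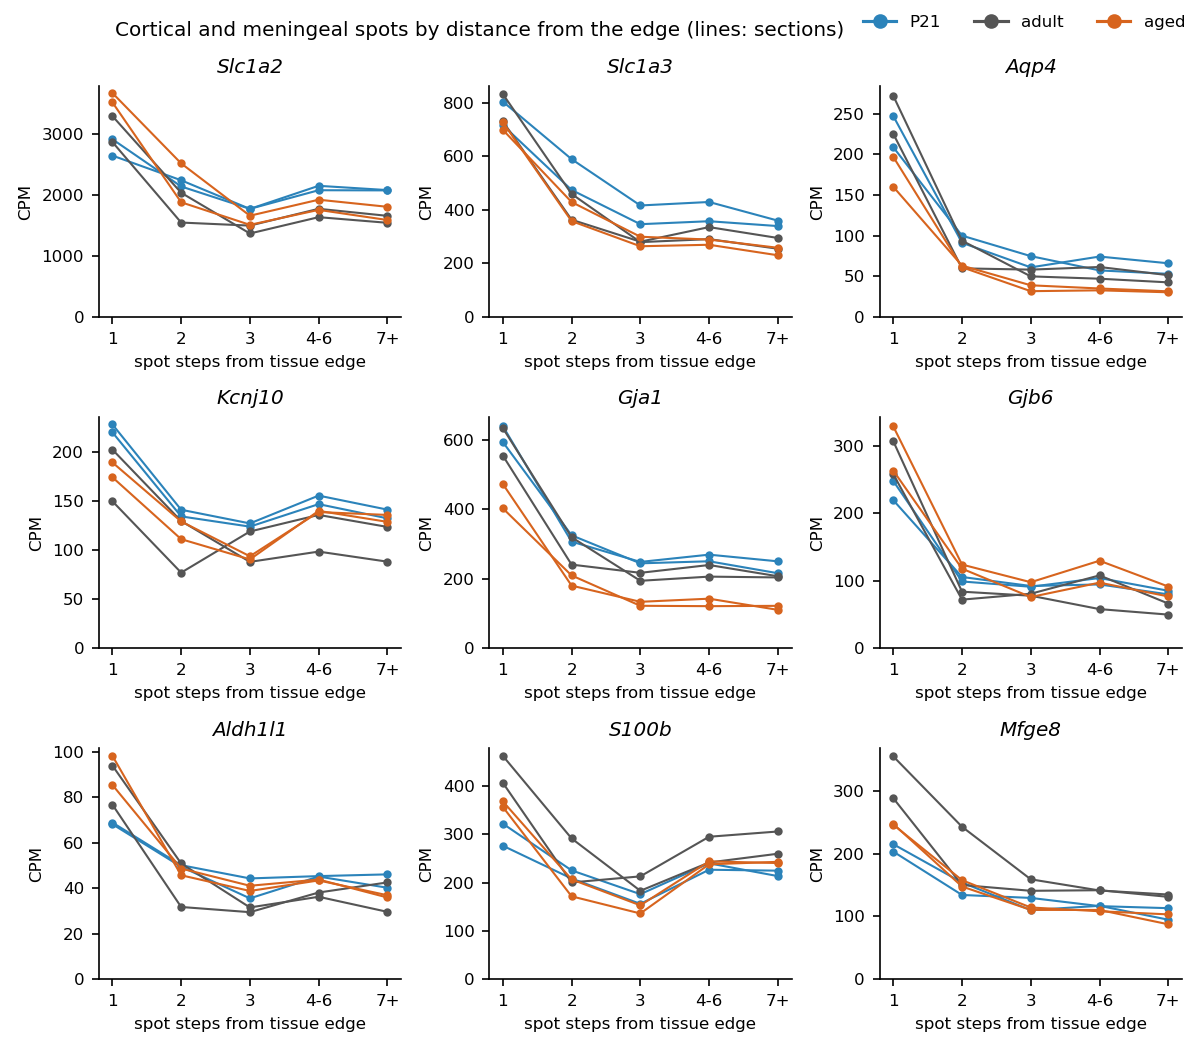
Level in CPM (vertical axes, from 0) of cortical and meningeal spots against the number of spot steps from the tissue edge, with a line per section coloured by age. Every gene is higher in the first row of spots than 7 or more steps inside, with the steepest drop for Aqp4.

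Within HP all 9 genes were lower in the neuronal cell layers than in the remaining spots. The hippocampal spots were clustered again into CA1-2, CA3 and dentate gyrus (DG), named by their neuronal markers, and a remainder without these markers, led by Myoc, Thbs4 and Col1a1. Slc1a2 was 3078 ± 618 CPM in the remainder (SD, n = 6 sections) against 868 ± 187 CPM in CA1-2, 1291 ± 208 CPM in CA3 and 1104 ± 270.2 CPM in DG. The largest contrast was that of Aqp4 with CA1-2, where the remainder was 6.62 times as high. The remainder lay above each of the other subregions in 6 of 6 sections for all 9 genes. Its share of the HP spots differed by age, with 127 of 284 and 109 of 238 spots in aged mice against 242 of 356 and 285 of 426 in adults and 217 of 332 and 214 of 307 at P21. Within the remainder, the aged values lay above the adult ones for Slc1a2, Slc1a3, Kcnj10, Gjb6, Aldh1l1 and S100b. For Aqp4, Gja1 and Mfge8 they overlapped. These differences were not tested.

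Zone by zone, some changes passed the criteria. In P21 vs. adult, 7 of 54 pairs of a gene and a zone were called (13%), 2 higher and 5 lower, where 6.05% of all such pairs were. In aged vs. adult, 12 of 54 pairs were called (22.2%), 7 higher and 5 lower, against 14.7% of all pairs. None of the 7 P21 calls lay in CTX or HP, where 4.88% and 6.82% of genes were called. By adjusted p alone, however, 7 of 9 genes were higher and 1 lower in CTX at P21, where 2108 of 10922 genes passed. In HP 4 of 9 were higher, where 1456 of 11146 genes passed. Without P21 replicate 1 or adult replicate 2, fewer of the 54 pairs were called in P21 vs. adult. Fewer of all genes were called as well in each of the 6 zones. Pairs of a gene share sections, and both comparisons share the adult sections. VS and RT, with 26 to 101 spots per section, were not tested.

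**Figure D4:**
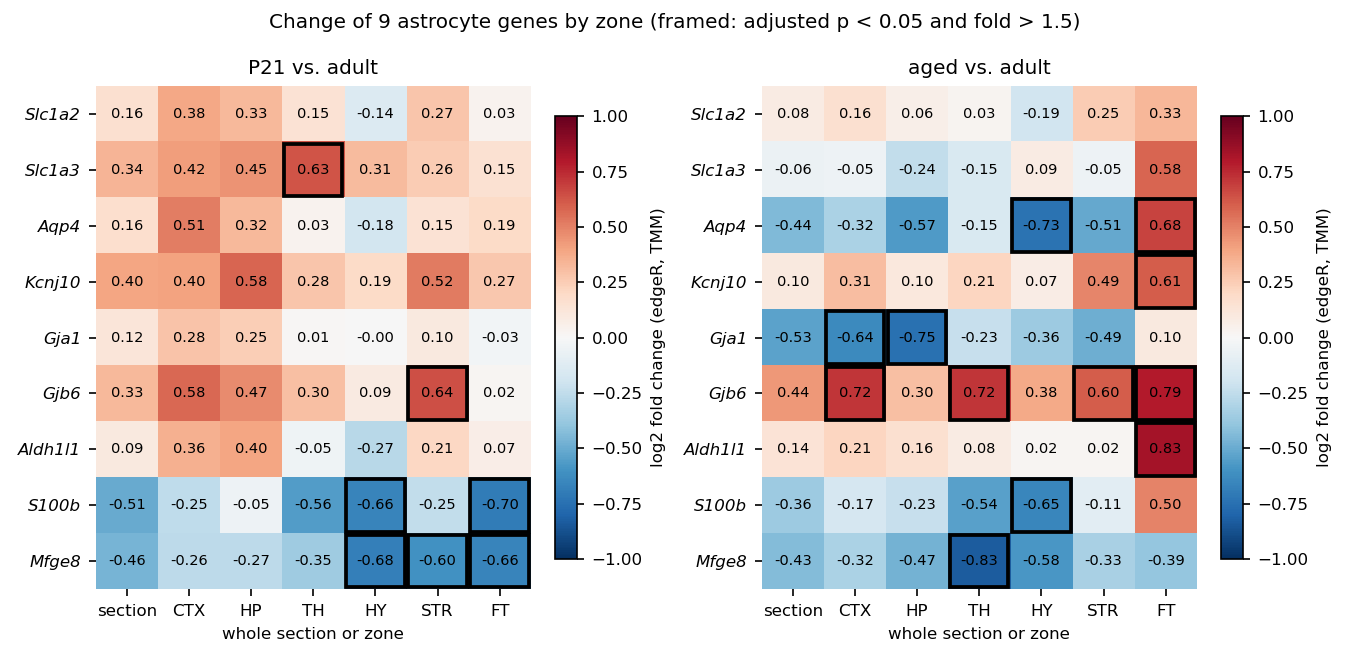
Log2 fold change from the edgeR fits of each gene (rows) in the whole section and 6 zones (columns) in P21 vs. adult (left) and aged vs. adult (right), with red for higher and blue for lower than adult. Frames mark the 7 and 12 called pairs, of which 4 lie in FT in aged vs. adult.

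Of the transporters, Slc1a3 rose in TH of P21 mice. It was 331 and 289.6 CPM at P21, 190.2 and 177 CPM in aged mice and 215 and 198 CPM in adults, so the P21 values lay well clear of the others. The log2 fold change in P21 vs. adult was 0.63 ± 0.090 (adjusted p = 0.00125), in a zone where 7.1% of genes were called. It was 0.53 without P21 replicate 1 and 0.58 without adult replicate 2, and neither of these was called. In FT of aged mice Slc1a3 was 509 and 468 CPM against 364 and 329 CPM in adults, a log2 difference of 0.58 ± 0.090 that stopped just short of the fold criterion (adjusted p = 3.97e-05). Slc1a2 was called in no zone. Its largest difference was 0.38 ± 0.080 in CTX in P21 vs. adult.

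Aqp4 changed in opposite directions in different zones of the aged brain. In FT it was 159 and 165 CPM in adults, 220.0 and 269 CPM in aged mice and 158 and 196 CPM at P21. In HY it was 111 and 86.8 CPM in adults, 57.9 and 62.0 CPM in aged mice and 87.8 and 85.8 CPM at P21. The aged sections were thus above all others in FT and below all others in HY. The log2 fold change from adult to aged mice was 0.68 ± 0.11 in FT (adjusted p = 6.57e-05) and -0.73 ± 0.12 in HY (adjusted p = 0.00289). The FT call was lost without aged replicate 2 (0.54), with no filter on low genes (0.51) and with zones drawn by marker panels (0.49). The HY call was lost without adult replicate 1 (-0.55). Aqp4 differed by -0.57 ± 0.11 in HP and -0.51 ± 0.12 in STR, below the fold criterion. In HP the spots outside the neuronal layers, which held more Aqp4, were a smaller share in aged mice, and within them Aqp4 was 135 and 200.3 CPM in aged mice and 169 and 162 CPM in adults, which overlapped. Of all genes, 26.2% were called in FT and 11.8% in HY.

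Kcnj10 was called in 1 of the 6 zones, FT of aged mice. It was 417 and 369.9 CPM in the aged sections, 277 and 272 CPM in the adult sections and 305 and 323 CPM in the P21 sections, and the aged values were the highest. The log2 fold change of 0.61 ± 0.089 (adjusted p = 2.35e-05) was called, and 8 of 16 alternative analyses lost the call, among them the fits without P21 replicate 1 (0.58) and without aged replicate 1 (0.51).

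The connexin genes parted ways in the aged brain. Gja1 in CTX was 196 and 198 CPM in adults, 124 and 127 CPM in aged mice and 224 and 249 CPM at P21. In HP it was 262 and 269 CPM in adults, 156 and 152 CPM in aged mice and 301 and 333 CPM at P21. The aged sections lay far below all others in both zones. Gja1 fell by 0.64 ± 0.074 in CTX (adjusted p = 7.86e-05) and by 0.75 ± 0.089 in HP (adjusted p = 1.76e-04) on the log2 scale, and both calls held in 16 of 16 alternative analyses. Of all genes, 10.3% were called in CTX and 11.9% in HP. In HP the smaller share of spots outside the neuronal layers in aged mice moved with this fall. Within those spots Gja1 was 395 and 499.8 CPM in aged mice and 479 and 517 CPM in adults, which overlapped. In CA1-2 it was 87.3 and 75.5 CPM in aged mice against 123 and 134 CPM in adults, and in CA3 80.7 and 82.5 CPM against 112 and 122 CPM, so the aged values were lower in these layers, while in DG they overlapped. The part of this share in the HP result was not tested. Gja1 was also lower in aged STR (-0.49 ± 0.097, adjusted p = 8.61e-04) and HY (-0.36 ± 0.092, adjusted p = 0.0184), under the fold criterion. In FT the level was 398 and 389 CPM in aged and 376 and 403 CPM in adult sections, which overlapped.

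Gjb6 was called higher in 4 zones of the aged brain. It was 83.4 and 106 CPM in CTX of aged mice against 64.4 and 51.2 CPM in adults, with a log2 fold change of 0.72 ± 0.12 (adjusted p = 6.14e-04). In TH it was 197 and 203 CPM against 120.4 and 125 CPM (0.72 ± 0.077, adjusted p = 1.01e-04), in a zone where 13.6% of genes were called. In FT it was 124 and 153 CPM against 86.9 and 82.4 CPM (0.79 ± 0.098, adjusted p = 3.67e-06). The TH and FT calls held in 16 of 16 alternative analyses. Gjb6 was also higher in aged HP (0.30 ± 0.092, adjusted p = 0.0293) and HY (0.38 ± 0.099, adjusted p = 0.0201), under the fold criterion. The STR call, in a zone where 14.5% of genes were called, had a smaller change (0.60 ± 0.12, adjusted p = 0.00110) and was lost in 5, including those without adult replicate 2 (0.53) and aged replicate 2 (0.53), and the CTX call was lost without the same sections (0.57 and 0.56). In P21 vs. adult Gjb6 rose in STR, from 52.5 and 47.02 CPM in adults to 72.2 and 81.5 CPM at P21 (0.64 ± 0.13, adjusted p = 0.00524). This call was lost, on adjusted p or fold, without P21 replicate 1 (0.74), P21 replicate 2 (0.58) or adult replicate 2 (0.57). It was lost as well with zones drawn by marker panels (0.49) and with interior spots, whose neighbours all belong to the zone (0.60). In that zone and comparison 4.03% of genes were called.

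Set against each other, the connexins separated the aged sections from the adult ones. The ratio was chosen after the values were seen and carries no test, and its absolute value depends on the probes. Over whole sections Gja1 over Gjb6 was 1.85 and 1.59 in aged mice, 3.16 and 3.56 in adults and 2.78 and 3.02 at P21. In CTX it was 1.49 and 1.199 in aged mice, 3.04 and 3.87 in adults and 2.56 and 3.03 at P21. The aged ratios lay below both adult ratios in all 8 zones and in the zone of meninges and large vessels. In VS they were 3.85 and 3.21 against 4.19 and 4.27 in adults and 4.07 and 3.75 at P21, and there the aged and P21 ratios overlapped. Probe design and age cannot be told apart in this ratio.

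**Figure D5:**
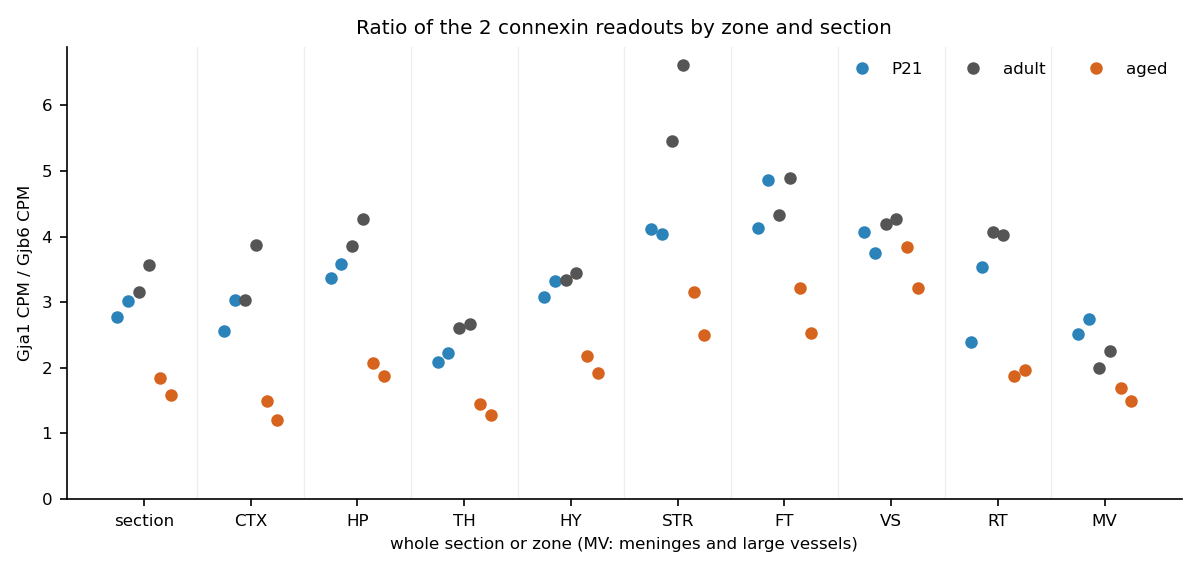
Ratio of Gja1 to Gjb6 CPM (vertical axis, from 0) in the whole section, the 8 zones and the meninges and large vessels (MV), with each section a point coloured by age. The aged points lie below the adult points in every column.

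The astrocyte marker Aldh1l1 was called in 1 of the 6 zones, FT of aged mice. It was 73.6 and 75.7 CPM there, 48.7 and 40.3 CPM in adults and 45.7 and 42.3 CPM at P21, with the aged sections above all others. It rose by 0.83 ± 0.11 on the log2 scale (adjusted p = 9.11e-06), in 16 of 16 alternative analyses too. In the other 5 zones its aged vs. adult difference lay between 0.019 and 0.21. In the HP spots outside the neuronal layers, however, Aldh1l1 was 80.1 and 95.6 CPM in aged mice and 50.1 and 48.6 CPM in adults. This difference within HP was not tested.

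S100b was called lower at P21 in FT and HY and called lower in HY of aged mice. In FT it was 765 and 893 CPM in adults, 1192 and 1015 CPM in aged mice and 467 and 501 CPM at P21, 3 levels that did not overlap and that followed the order of age. The log2 fold change was -0.70 ± 0.10 in P21 vs. adult (adjusted p = 8.09e-05, with 9.41% of genes called) and 0.50 ± 0.10 in aged vs. adult, the latter under the fold criterion. In HY it was 424 and 417 CPM in adults, 269 and 270.4 CPM in aged mice and 288 and 243 CPM at P21. Both outer ages lay below the adult sections there. It fell by 0.66 ± 0.11 in P21 vs. adult (adjusted p = 0.00857, with 3.98% of genes called) and by 0.65 ± 0.11 in aged vs. adult (adjusted p = 0.00293). The aged HY call held in 16 of 16 alternative analyses. In TH S100b was 463 and 478 CPM in adults, 356 and 283 CPM in aged mice and 318 and 308 CPM at P21. The log2 difference there was -0.56 ± 0.11 in P21 vs. adult (adjusted p = 0.00567) and -0.54 ± 0.11 in aged vs. adult (adjusted p = 0.00292). These TH differences were just under the fold criterion. The P21 HY call was lost without P21 replicate 1, P21 replicate 2 or adult replicate 1, where the adjusted p was 0.0697, 0.131 and 0.0501. The P21 FT call was lost without adult replicate 2, with a log2 fold change of -0.58. The summed level of 10 mature oligodendrocyte genes in FT was 83618 and 98886 CPM at P21, 51077 and 49616 CPM in aged mice and 44138 and 43206 CPM in adults, with the P21 sections highest. The part of these cells in the S100b values was not tested.

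Mfge8 was called lower at P21 than in adults in 3 zones. In FT it was 139 and 147 CPM in adults, 106 and 101 CPM in aged mice and 83.7 and 88.6 CPM at P21. It fell by 0.66 ± 0.087 on the log2 scale in P21 vs. adult (adjusted p = 2.35e-05), in 16 of 16 alternative analyses too. In HY and STR the log2 fold change was -0.68 ± 0.15 (adjusted p = 0.0274) and -0.60 ± 0.10 (adjusted p = 9.09e-04). The HY call was lost, on adjusted p and not on fold, when any 1 of the 4 P21 and adult sections was left out (-0.72 to -0.66). It was lost in the same way with no filter on low genes (-0.70) and with interior spots (-0.68). The STR call was lost without P21 replicate 1 (-0.59) and with zones drawn by marker panels (-0.46). In TH of aged mice Mfge8 was 42.0 and 40.3 CPM against 75.2 and 72.7 CPM in adults and 54.8 and 58.3 CPM at P21. It fell there by 0.83 ± 0.090 in aged vs. adult (adjusted p = 1.12e-04), as large a change as that of Aldh1l1 in FT, and the call held in 16 of 16 alternative analyses. The aged sections were lower in the other tested zones too, under the fold criterion. The log2 difference was -0.32 in CTX, -0.47 in HP, -0.58 in HY, -0.33 in STR and -0.39 in FT (adjusted p from 0.00111 to 0.0187).

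The size of the age effect differed between zones for most of the genes. This was tested with a model that holds each section's own level constant, so that a factor acting alike on a gene throughout a section drops out. In aged vs. adult, 8 of 9 genes had an adjusted p under 0.05 for the zone-by-age terms, beside 48.5% of all genes. The lowest were those of Gja1 (5.57e-08), Aqp4 (4.27e-07) and Slc1a3 (6.74e-06), and Kcnj10 did not pass (0.170). Relative to its change in CTX, the change in FT was larger by 0.97 for Aqp4, 0.71 for Gja1, 0.64 for S100b, 0.61 for Slc1a3 and 0.59 for Aldh1l1 on the log2 scale, but only by 0.049 for Gjb6. With FT left out, 5 of 9 genes still passed, beside 24.6% of all genes. In P21 vs. adult 7 of 9 genes passed, beside 11.9% of all genes, led by Slc1a2 (0.00173) and Gjb6 (0.00591). For all 9 genes the P21 minus adult difference was lower in HY than in CTX, with -0.52 for Slc1a2, -0.49 for Gjb6 and -0.69 for Aqp4 (HY minus CTX, log2 scale). The P21 result rests on all 4 P21 and adult sections. Without P21 replicate 1, 0 of 9 genes passed, and without P21 replicate 2, adult replicate 1 or adult replicate 2, 1 of 9 passed, while the share of all genes that passed fell to 1.9 to 3.31%.

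In FT of the aged brain 4 of 9 genes were called higher, more than in any other tested zone. These were Aqp4, Kcnj10, Gjb6 and Aldh1l1, and none was called lower there, where 14.7% of all genes were called higher. The median log2 difference of the 9 genes was 0.58 in FT, against a median of 0.03 over all genes, and it lay between -0.23 and -0.05 in the other 5 zones. Other cell markers in FT spots differed by age as well. Reference astrocyte genes summed to 4413 and 4371 CPM in adults and 6033 and 6169 CPM in aged mice, with 7 of 15 called higher and a median of 0.49. Microglial genes were called higher for 6 of 8, with a median of 1.29. Reactive astrocyte genes summed to 788 and 877 CPM and 3735 and 4085 CPM, with 7 of 7 tested called higher. Pan-neuronal genes summed to 5869 and 5549 CPM and 2979 and 3087 CPM. These markers thus differed between the ages in FT, and their part in the results was not tested. With interior FT spots alone, whose neighbours all belong to FT, 3 of the 4 calls held and that of Kcnj10 was lost (0.54). With zones drawn by marker panels, the calls of Aqp4 (0.49) and Kcnj10 (0.52) were lost. The same calls were lost with no filter on low genes (0.51 and 0.44), while those of Gjb6 and Aldh1l1 held.

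Other genes of the same pathways were read in whole sections, where 5.19% of all genes were called at P21 and 8.87% in aged mice. Of 15 reference astrocyte genes, 2 rose in P21 vs. adult, Itih3 (0.80) and Agt (0.74), and 1 rose in aged vs. adult, Fgfr3, a growth factor receptor (0.77), with none lower. Their median log2 difference was 0.12 and 0.17, against -0.0013 and 0.0017 over all genes. Of 15 further carriers, pumps and channels tested, 1 rose at P21, the monocarboxylate carrier Slc16a1 (0.59). In aged mice the mitochondrial glutamate carrier Slc25a18 rose (0.93), from 67.9 and 67.2 to 129 and 128 CPM, and 3 fell, Slc13a3 (-0.87), the glycine transporter Slc6a9 (-0.75) and the cystine carrier Slc7a11 (-0.65). Of 13 genes of glutamate and glutamine handling, none was called at P21 and 2 rose in aged mice, Got1 (0.71) and the glutamine carrier Slc38a2 (0.65).

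Of 11 other connexins, pannexins and scaffold genes tested, 3 fell in aged mice and none rose, where 8.87% of all genes were called in either direction, with a median of -0.42. Gja4, a vascular connexin, went from 9.47 and 8.18 CPM in adults to 3.83 and 4.28 CPM in aged mice (-1.12), and Gjb1, an oligodendrocyte connexin, from 50.7 and 51.2 to 29.2 and 26.8 CPM (-0.86). At P21, where 5.19% of all genes were called, 2 rose, among them the neuronal connexin Gjd2 (0.73). Of 11 genes of the endfoot anchoring complex, Hepacam, a cell adhesion gene of astrocytes, fell in aged mice from 188 and 178 to 98.4 and 90.4 CPM (-0.96), and the syntrophin Sntb1 rose at P21 (1.31). No other gene of that list was called.

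The counts that follow stand beside the same 5.19% of all genes called at P21 and 8.87% in aged mice. Of 10 folate-dependent enzymes tested, Mthfd2 fell at P21 (-0.59), and in aged mice Mthfd1l rose (0.79) and Aldh7a1 fell (-0.60). Of 6 other S100 genes tested, none was called at P21, and in aged mice S100a10 rose (0.63) while S100a16 fell (-0.76). Of 10 phagocytosis genes tested, the receptor Megf10 fell at P21 (-0.72) and the receptor kinase Mertk rose in aged mice (0.69). Reactive astrocyte genes were called higher in aged mice for 4 of 7 tested, led by Serpina3n (2.59) and Osmr (1.15), with none of 6 called at P21.

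Markers of other cell types moved with age in whole sections, and their part in the results above was not tested. At P21, 9 of 10 mature oligodendrocyte genes were higher, led by Cldn11 (1.72) and Ugt8a (1.59), as were 4 of 6 oligodendrocyte precursor genes, led by Gpr17 (2.15) and Neu4 (1.12). In aged mice 6 of 10 mature oligodendrocyte genes were lower, led by Mag (-0.99) and Ugt8a (-0.90), and so was Gpr17 (-0.86). The 3 hemoglobin genes tested rose at P21, with 2.95 for Hbb-bs and 3.05 for Hbb-bt. Ependymal genes Foxj1 (0.77) and Rarres2 (0.76) were higher at P21, 2 of 3 tested. In aged mice the endothelial genes Cldn5 (-1.25) and Tek (-1.03) were among 3 of 8 called lower, with Flt1 higher (0.60), and the smooth muscle genes Tagln (-1.21) and Acta2 (-0.88) were lower, 2 of 3 tested. The microglial gene P2ry12 was lower in aged mice (-0.61). The summed level of the microglial genes, however, was higher in aged than in adult sections in HP, TH, HY, STR and FT. It was 1927 and 1982 CPM against 652 and 765 CPM in FT, while the values overlapped in CTX. Of 8 pan-neuronal genes Syt1 was higher (0.99) and Stmn2 lower (-0.68) in aged mice.

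For each gene, the 3 genes most alike in level over 48 points, which are 6 sections in 8 zones, were found by Pearson's r of log2(CPM + 1). The points share sections and depth, so that r is a description. S100b had the closest, Sept4 (0.95), Csrp1 (0.94) and Evi2a (0.94). Kcnj10 was followed by Kndc1 (0.91), Wnt3 (0.89) and Retreg1 (0.89). The nearest to Gjb6 were Atp1b2 (0.90), an astrocytic sodium pump subunit, Etnppl (0.86) and Lrig1 (0.84), and the nearest to Gja1 were Galnt1 (0.89), Eci2 (0.87) and Gpr37l1 (0.87), an astrocytic receptor. Aqp4 had Sema6d (0.88), Metrn (0.87) and Tprn (0.87). Slc1a2 had Arhgef2 (0.85), Mink1 (0.84) and Tmem132b (0.83), and Slc1a3 had Arhgdia (0.77), Lamc1 (0.76) and Mboat2 (0.76). Mfge8 had Tmem109 (0.83), Dlg1 (0.82) and Eefsec (0.80), and Aldh1l1 had St6gal1 (0.78), Kat2b (0.78) and Pon2 (0.77). None of the 9 genes was among the 3 nearest of another. Among the 9, the highest r were those of Aqp4 with Gja1 (0.83) and Kcnj10 with Gjb6 (0.79), whereas Gja1 and Gjb6 reached 0.28.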

How the data were processed

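The deposited matrices hold UMI counts per gene and spot, made by the authors with Space Ranger 2.0.0 for P21 and adult and 3.1.1 for aged sections, as the file headers and methods state, on mm10. The submitters' processing notes name Space Ranger 2.1.0 and Seurat 5.1.0. Moran's I values are a score deposited per gene and section. The revised protocol of the aged sections can change the capture of single genes.

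Spots with under 250 genes or 500 UMIs were removed. UMIs were summed per section and zone, and the sums are the replicates. CPM are plain, whereas fold changes are from edgeR 4.0.16 (quasi-likelihood test, TMM factors, age as the only term, all 6 sections, Benjamini-Hochberg over all genes tested). Tested genes passed filterByExpr and were detected in over 10% of spots of either age and at least 10% of all spots, as all 9 were. Zones came from Leiden clustering on 3000 variable genes and 10 principal components at resolution 0.3. The interaction model had the section as a block. Scripts were tested on simulated data. The titles call the sections of an age biological replicates.

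The genes, lists and tests were chosen with earlier results of these data known. All 9 genes were named in every comparison, and of each list the called genes with the 2 largest changes in each direction. Alternatives tried were other scaling, no filter, DESeq2 1.42.0, the replicate number as a block, leaving out each section, adjusted p alone, thinned UMIs, marker panel zones, interior spots and no FT. Added after seeing the data were fits without a whole age, the crossed block, the edge profile with the meningeal zone and the ratios. Glul was not analysed, and some called list genes are not reported here.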

Additional observations from a re-analysis of the deposited data

Results flagged for a closer look

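The effect of age on 7 of 9 genes in P21 vs. adult and on 8 of 9 in aged vs. adult differed between the 6 tested zones, which is why they are listed here. In P21 vs. adult, the adjusted p of the zone-by-age terms in edgeR's quasi-likelihood F-test was 0.00173 for Slc1a2, 0.00591 for Gjb6, 0.0183 for Gja1, 0.0208 for Slc1a3, 0.0253 for Aqp4, 0.0300 for Aldh1l1 and 0.0347 for S100b. In aged vs. adult it was 5.57e-08 for Gja1, 4.27e-07 for Aqp4, 6.74e-06 for Slc1a3, 4.57e-05 for S100b, 8.00e-04 for Slc1a2, 0.00172 for Aldh1l1, 0.00569 for Gjb6 and 0.0471 for Mfge8. Among all genes 11.9% and 48.5% passed in these comparisons.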

How the results depend on the processing

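In aged vs. adult, 7 of 12 called pairs of a gene and a zone were called in all 16 alternative analyses, and in P21 vs. adult 1 of 7, Mfge8 in FT. No called pair changed sign in any of them. By adjusted p alone, without the fold criterion, 5 of 9 genes passed in whole sections in each comparison. Of all genes, 3118 of 11153 did so in P21 vs. adult and 5487 of 11315 in aged vs. adult. Of the pairs, 24 of 54 passed at P21 and 32 of 54 in aged mice. Across the tested zones, the all-gene count ran from 712 of 11015 (HY) to 2785 of 11125 (FT) at P21. In aged mice it ran from 3043 of 11066 (HY) to 5955 of 11086 (FT). With no filter on low genes 1 of 9 genes, Gja1, was called in whole sections in aged vs. adult, beside 6203 of 19393 of all genes. Without FT, 5 of 9 genes had an adjusted p under 0.05 for the zone-by-age terms in aged vs. adult. Leaving out 1 section at a time gave 3 to 8 called pairs at P21 and 11 to 14 in aged mice, and 0 to 8 and 7 to 9 genes with zone-by-age terms. All-gene calls in the zones and all-gene shares for these terms varied with the section left out as well. The swings in these counts are thus not particular to the 9 genes. Small whole-section log2 differences in aged vs. adult changed sign. With no filter on low genes Kcnj10 was -0.025 and Slc1a2 -0.036. Leaving out 1 section at a time, they ranged from -0.040 to 0.22 for Kcnj10, from -0.029 to 0.19 for Slc1a2 and from -0.16 to 0.034 for Slc1a3, with the sign turned without aged replicate 1 for the former 2 and without aged replicate 2 for Slc1a3. The cause was not tested. Deviations of same-numbered sections correlated at 0.15 (P21 and adult), -0.14 (P21 and aged) and -0.41 (adult and aged). With 2 sections per age, the sign of each value depends on how the sections were numbered. These values therefore cannot decide whether sections of different ages were paired. With the replicate number as a block, 0 genes were called in whole sections, with 7 pairs at P21 and 13 in aged mice. With the aged numbers crossed, the counts for the 9 genes were 0, 7 and 13. Of all genes, 580 of 11153 and 1000 of 11315 were then called in whole sections. By zone, all-gene calls ran from 521 of 11005 (STR) to 1060 of 11125 (FT) at P21. For aged vs. adult they ran from 1159 of 11224 (CTX) to 2899 of 11086 (FT). With thinned UMIs the aged calls of Gjb6 in STR (0.57) and Kcnj10 in FT (0.56) were lost. Precision is limited by 2 sections per age and by depth, and the aged sections differ from the others in protocol.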
